A study of Mus musculus with 8 samples.

Results

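The photoreceptor ribbon synapse and its transsynaptic adhesion proteins are described here through 9 genes, chosen by their symbols: Cacna1f, Cacna2d4, Cabp4, Lrit1, Lrit2, Elfn1, Elfn2, Mpp4 and Egflam. The choice was made with earlier results of these data known, so that their calls are set beside those of all genes as a description only. They are 9 of the 43472 symbols in the count tables, and all 9 were among the 12516 genes that passed the filter on low counts and were tested. The libraries were made from neural retinas of mice in a C57Bl6/J background at postnatal day 21 (3 weeks), with 4 control and 4 Mfp2-/- mice. The controls were 3 Mfp2+/+ mice and 1 Mfp2+/- mouse (control replicate 2), and the Mfp2-/- mice lack the peroxisomal enzyme MFP2, encoded by Hsd17b4, in the whole body. Each library held the RNA of both retinas of 1 mouse, sequenced from the 3′ ends of transcripts, so that photoreceptors, bipolar cells and glia were measured together.

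Photoreceptors release glutamate at a ribbon synapse, where a plate-like ribbon holds vesicles beside Cav1.4 calcium channels. Proteins that reach across the synaptic cleft hold the terminal in register with the mGluR6 receptor complex on the dendrites of ON bipolar cells. Defects of the Cav1.4 channel or of mGluR6 signalling are known from congenital stationary night blindness, in which the transmission from photoreceptors to bipolar cells fails.

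Among the 9 genes, 8 were lower in Mfp2-/- retinas and 1, Elfn2, was higher, in edgeR's quasi-likelihood test at an adjusted p under 0.05 over all genes tested. Over all 12516 genes, 13.2% were called lower and 13.8% higher. In each of the 9 genes the 4 Mfp2-/- libraries lay on one side of the 4 control libraries, which was so for 15.8% of all genes in the downward and 15.1% in the upward direction. The median log2 fold change was -1.97 over the 9 genes, against -0.0039 over all genes tested. The decreases spanned from 62.0% of the control level left (Cacna2d4) to 5.84% (Cabp4). From the RNA of whole retinas alone, fewer photoreceptors and less RNA per photoreceptor cannot be told apart. By histology at the same age, the paper found a normal number of photoreceptor nuclei, with more apoptotic ones. The part of either in these values was not tested.

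**Figure D1:**
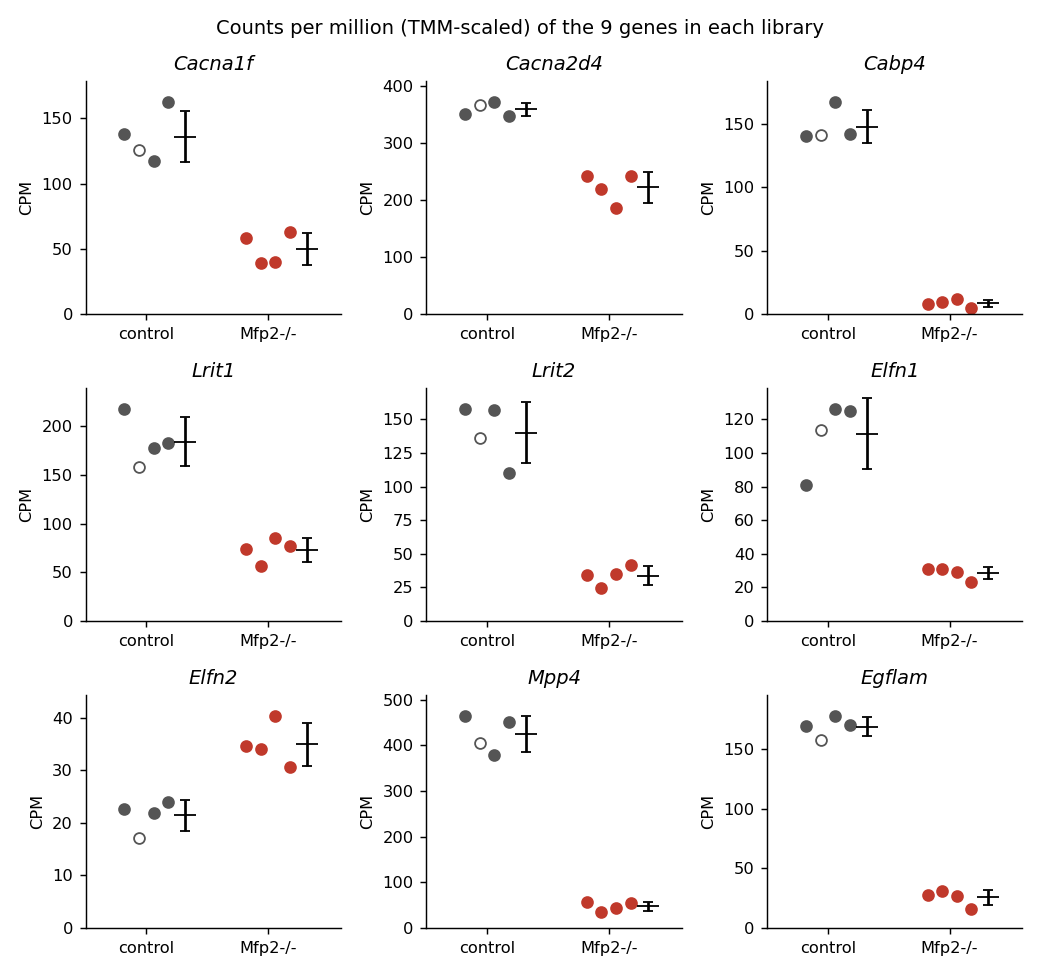
CPM, read counts scaled to library size (vertical axis from 0), of the 9 genes in 4 control (grey) and 4 Mfp2-/- (red) libraries, with a panel per gene. The open symbol is the Mfp2+/- mouse and the bars give the mean and SD of each group; the groups do not overlap in any panel, and Elfn2 is the gene whose red points lie above the grey ones.

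The sequences before the transcription start are shown for Lrit1, which held both of the motifs searched, and for the paralogs Elfn1 and Elfn2, which changed in opposite directions. They are the 250 bases upstream of the RefSeq start on GRCm38.p6, written 5′ to 3′ on the strand of the gene, with matches in capitals. Lrit1 lies at chr14:37054580-37054829 (plus strand), Elfn1 at chr5:139907616-139907865 (plus strand) and Elfn2 at chr15:78718772-78719021 (minus strand).
Lrit1: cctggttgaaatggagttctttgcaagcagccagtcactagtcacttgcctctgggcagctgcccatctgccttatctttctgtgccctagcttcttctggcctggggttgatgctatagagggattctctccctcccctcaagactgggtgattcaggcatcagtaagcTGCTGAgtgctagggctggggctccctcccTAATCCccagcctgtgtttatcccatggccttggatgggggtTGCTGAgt
Elfn1: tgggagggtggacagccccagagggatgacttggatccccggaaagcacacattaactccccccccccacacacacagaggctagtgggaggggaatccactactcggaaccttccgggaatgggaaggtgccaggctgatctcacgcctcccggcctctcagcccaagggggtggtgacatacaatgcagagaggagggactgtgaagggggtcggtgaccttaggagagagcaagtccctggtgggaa
Elfn2: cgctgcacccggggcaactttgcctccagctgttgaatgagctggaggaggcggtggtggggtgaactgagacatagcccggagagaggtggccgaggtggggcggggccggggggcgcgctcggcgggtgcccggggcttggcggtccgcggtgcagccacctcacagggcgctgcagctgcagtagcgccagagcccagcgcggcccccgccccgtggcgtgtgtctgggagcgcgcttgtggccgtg

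The 2 motifs searched on both strands were TAATCC, the core bound by the photoreceptor homeodomain factor CRX, and TGCTGA, a half-site of the rod factor NRL. They do not overlap in these windows. Of all 32851 upstream windows of this length, 6.25% held TAATCC and 16.1% held TGCTGA. Of the 7 members with a RefSeq window (all but Cacna2d4 and Cabp4), Lrit1, Lrit2 and Mpp4 held both motifs in at least 1 window each, although the Mpp4 matches were in the windows of different starts. In Lrit1, TAATCC ended 44 bases and TGCTGA ended 74 and 2 bases before the start. Neither motif was found in the windows of Cacna1f, Elfn1, Elfn2 or Egflam. A match is given as a description of the sequence only. The GC content of the 3 windows printed was 55.2% for Lrit1, 60.8% for Elfn1 and 73.6% for Elfn2.

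The Cav1.4 pore gene Cacna1f, its auxiliary subunit gene Cacna2d4 and its regulator Cabp4 were all lower, but by different amounts. Levels are given as CPM, the read counts of a gene scaled to the size of its library, with replicates 1 to 4 in order. Cacna1f encodes the pore-forming subunit of the channel (chromosome X, 7607083 to 7635196 of GRCm38, protein coding, 44 exonic stretches). It was at 138, 126, 118 and 162 CPM in control replicates 1 to 4 and at 58.0, 39.1, 40.0 and 63.2 CPM in Mfp2-/- replicates 1 to 4. Every Mfp2-/- library was well below the lowest control, and replicates 2 and 3 were lower than 1 and 4. The mean fell from 136 ± 19.5 to 50.1 ± 12.4 CPM (SD, n = 4 mice per group), a log2 fold change of -1.44 (standard error 0.19; edgeR adjusted p = 0.000302).

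Cacna2d4 encodes the auxiliary α2δ4 subunit, which is needed to place the channel at rod and cone terminals (chromosome 6, 119236526 to 119352407). Its control libraries held 352, 367, 372 and 349 CPM and its Mfp2-/- libraries 243, 220.03, 186 and 243 CPM. The controls were close together, and the Mfp2-/- libraries lay below them with replicate 3 the lowest. This was the smallest decrease among the 8 genes, from 359.8 ± 11.5 to 223 ± 27.0 CPM (log2 fold change -0.69, standard error 0.13; edgeR adjusted p = 0.00283).

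Cabp4, a calcium-binding protein that tunes the opening of Cav1.4 (chromosome 19, 4135423 to 4144033), showed the largest decrease. It reached 140.5, 141, 167 and 142 CPM in the control libraries against 7.79, 9.65, 11.8 and 5.15 CPM in the Mfp2-/- libraries. Few counts were left, with 22, 19, 35 and 14 in the Mfp2-/- libraries against 312 to 518 in the controls. The log2 fold change was -4.10 (standard error 0.22; edgeR adjusted p = 3.45e-07), which is 17.1-fold lower and ranked 43 from the lowest of all genes tested. Cabp4 shares 131 exon bases with Gpr152 on the other strand, whose own counts summed to 437 over the controls and 45 over the Mfp2-/- libraries, and 113 of its 3611 stretches of 50 bases also occur in transcripts of Gm11594, so that some of its reads are uncertain.

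Since the counts of a library are shared by all its genes, ratios between these 3 genes were taken within each library, which removes the scaling. There were 5 such pairs in all, tested by exact two-sided permutation of the 4 against 4 libraries, where 0.0286 is the smallest p possible. The ratio of Cacna2d4 to Cabp4 was between 2.22 and 2.59 in control libraries and between 14.9 and 41.4 in Mfp2-/- libraries, a 10.2-fold shift (exact permutation test, adjusted p = 0.0286). Cacna1f to Cabp4 shifted 6.03-fold, from 0.706 to 1.14 in control libraries and from 3.26 to 10.9 in Mfp2-/- libraries (exact permutation test, adjusted p = 0.0286). Cacna1f fell further than Cacna2d4: their ratio was 0.318 to 0.467 in control and 0.181 to 0.262 in Mfp2-/- libraries (1.68-fold; exact permutation test, adjusted p = 0.0286). The 3 genes therefore did not fall by 1 common factor. With 3′ counts the level of a ratio also depends on how well each 3′ end is captured, so only its shift between groups is compared.

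**Figure D2:**
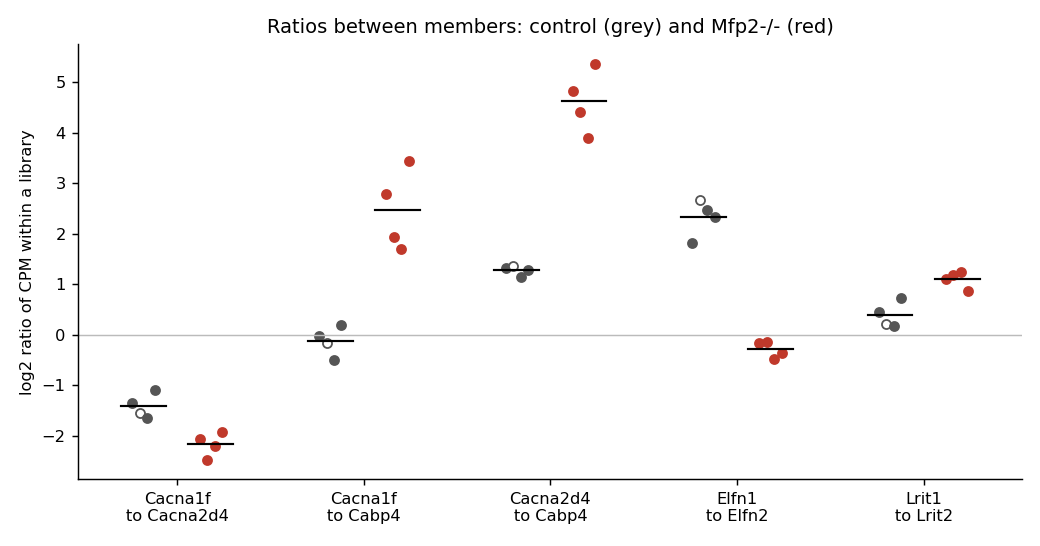
Log2 ratio of the CPM of 2 members within each library (vertical axis) for the 5 pairs tested, in control (grey, open symbol for the Mfp2+/- mouse) and Mfp2-/- (red) libraries; black lines are group means. The groups are separate in all 5 pairs, and the ratio of Elfn1 to Elfn2 falls from above 0 to below 0.

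The other calcium channel subunits and calcium-binding proteins did not follow. Of 15 such genes tested, 1 was lower, 4 were higher and 10 did not pass the test, with a median log2 fold change of 0.29. The gene that fell was Cacnb2, the β2 subunit that pairs with Cav1.4 in photoreceptors. It reached 178, 191, 155 and 210.4 CPM in the control libraries against 52.7, 24.9, 46.7 and 68.8 CPM in the Mfp2-/- libraries (log2 fold change -1.92, standard error 0.25; edgeR adjusted p = 0.000312). Cabp5, a calcium-binding protein of bipolar cells, rose by 0.76 (edgeR adjusted p = 0.00161), and the β3 subunit Cacnb3 by 0.95 (edgeR adjusted p = 0.0133) with groups that just failed to overlap, at 25.1 CPM in the highest control and 25.5 CPM in the lowest Mfp2-/- library. Cacna1a, the pore subunit of P/Q-type channels, rose by 0.48 (edgeR adjusted p = 0.0221), a call lost in 4 of 20 alternatives, among them leaving out control replicate 2, 3 or 4 (adjusted p between 0.00398 and 0.0677 over all alternatives). The number of the 15 genes called higher was 2 without control replicate 2, 3 or 4, and 6 without both Mfp2-/- replicates 2 and 3 or when the libraries were scaled by upper-quartile factors or total counts alone.

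The leucine-rich repeat adhesion proteins held both directions of change. Lrit1 is a transmembrane protein of photoreceptor terminals that takes part in the contact with cone ON bipolar cells (chromosome 14, 37054830 to 37064946). Its values were 217, 157, 178 and 183 CPM in the control libraries against 73.6, 56.4, 84.7 and 76.9 CPM in the Mfp2-/- libraries. The Mfp2+/- mouse was the lowest control, still far above every Mfp2-/- library. The log2 fold change was -1.33 (standard error 0.16; edgeR adjusted p = 0.000151).

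Lrit2, a less studied relative, is the next gene downstream on the same strand (chromosome 14, 37067929 to 37073743). It reached 158, 136, 157 and 109.7 CPM in the control libraries against 34.0, 24.4, 35.3 and 41.6 CPM in the Mfp2-/- libraries. No library overlapped with the other group, and the log2 fold change was -2.04 (standard error 0.19; edgeR adjusted p = 1.88e-05). Within libraries, the ratio of Lrit1 to Lrit2 moved from 1.13 to 1.66 in control to 1.83 to 2.37 in Mfp2-/- retinas, so that Lrit2 fell 1.63-fold further than its neighbour (exact permutation test, adjusted p = 0.0286).

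Elfn1 is the adhesion protein by which rods recruit mGluR6 on rod bipolar dendrites (chromosome 5, 139907943 to 139974722). It reached 81.2, 114, 126 and 125 CPM in the control libraries against 30.8, 31.0, 28.9 and 23.5 CPM in the Mfp2-/- libraries. Control replicate 1 was lower than the other controls, and the Mfp2-/- libraries lay close together below it. The log2 fold change was -1.97 (standard error 0.17; edgeR adjusted p = 1.55e-05).

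Its paralog Elfn2, which joins Elfn1 at cone synapses and is also made by other neurons (chromosome 15, 78667331 to 78718771), changed in the other direction. It reached 22.6, 17.2, 21.9 and 24.0 CPM in the control libraries against 34.7, 34.0, 40.3 and 30.5 CPM in the Mfp2-/- libraries. The lowest Mfp2-/- library was above the highest control, and the Mfp2+/- mouse was the lowest of all. The mean went from 21.4 ± 2.96 to 34.9 ± 4.06 CPM (log2 fold change 0.70, standard error 0.16; edgeR adjusted p = 0.00873). Its log2 fold change was 0.82 with upper-quartile factors or total counts alone and 0.59 without both Mfp2-/- replicates 2 and 3, and the call held in each of the 20 alternatives (adjusted p from 0.00375 to 0.0355). The ratio of Elfn1 to Elfn2 within a library was 3.51 to 6.37 in control and 0.722 to 0.912 in Mfp2-/- retinas, a 6.11-fold shift (exact permutation test, adjusted p = 0.0286). No stretch of 50 bases in the transcripts of a member was found in the transcripts of another member, so that reads of this length from 1 paralog match no other. Elfn2 does share 266 exon bases with 1700041B01Rik on the other strand, and the files do not show whether reads there were counted by strand.

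Genes of the bipolar side of the synapse held more increases than decreases. Of the 9 tested genes of the mGluR6 complex and other postsynaptic partners, 5 were higher, 1 was lower and 3 did not pass, with a median log2 fold change of 0.39. The number called higher was 3 with the replicate block and when control replicate 1, 2 or 4 or Mfp2-/- replicate 3 was left out. Bipolar cell markers were higher in 9 of 14 genes (median 0.66), a list that shares Grm6 and Trpm1 with this one, and the part of that shift here was not tested. Grm6, the mGluR6 receptor itself, reached 122, 122, 130.3 and 121 CPM in the control libraries against 217, 235, 180.2 and 282 CPM in the Mfp2-/- libraries (log2 fold change 0.89; edgeR adjusted p = 0.00151). Gpr179, which anchors the complex that ends the mGluR6 signal, rose by 0.90 (edgeR adjusted p = 0.000404). Nyx, which encodes the leucine-rich repeat protein nyctalopin, rose by 1.08 from 10.8 ± 2.52 to 23.2 ± 4.37 CPM (edgeR adjusted p = 0.00482). The gene that fell was Lrit3, which photoreceptors supply to place nyctalopin and the TRPM1 channel across the cleft. Lrit3 reached 20.7, 17.6, 24.5 and 21.6 CPM in the control libraries against 5.31, 4.07, 4.37 and 5.15 CPM in the Mfp2-/- libraries (log2 fold change -2.15, standard error 0.21; edgeR adjusted p = 3.37e-05).

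**Figure D3:**
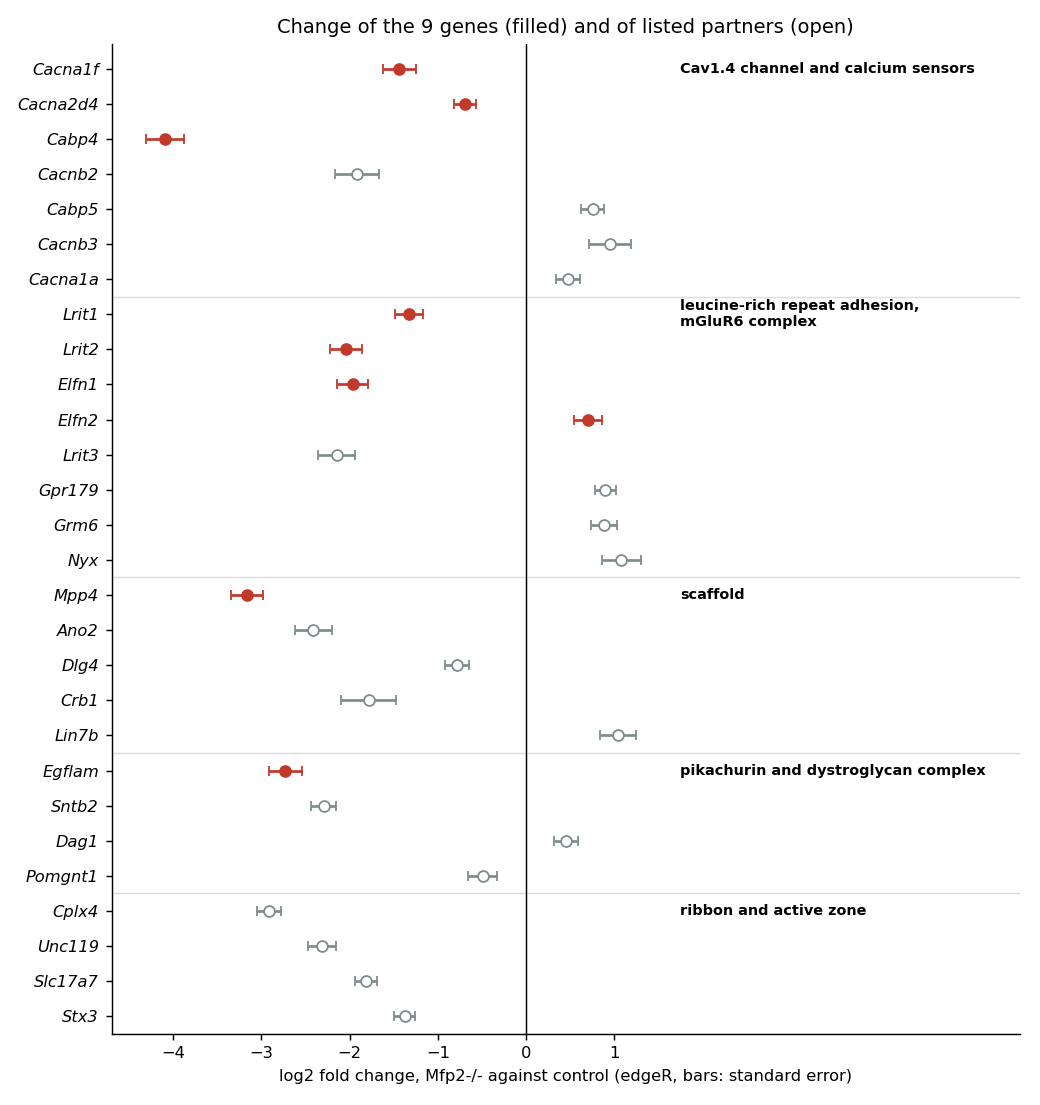
Log2 fold change of Mfp2-/- against control (horizontal axis, 0 means no difference) with its standard error for the 9 genes (filled red) and up to 4 listed partners of each kind (open grey). The 9 genes other than Elfn2 lie to the left of 0, down to -4.10 for Cabp4, whereas Elfn2 and the bipolar genes Gpr179, Grm6 and Nyx lie to the right.

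Mpp4 encodes a membrane-associated guanylate kinase of the photoreceptor terminal, a scaffold that holds Psd95 (Dlg4), Veli proteins (Lin7 genes), the calcium pump PMCA1 and the chloride channel TMEM16B at the membrane (chromosome 1, 59120935 to 59163389). It reached 464, 404, 379 and 451 CPM in the control libraries against 56.3, 35.1, 43.0 and 54.4 CPM in the Mfp2-/- libraries. The highest Mfp2-/- value was far below the lowest control. The mean went from 425 ± 39.9 to 47.2 ± 9.98 CPM, which left 11.2% of the control level (log2 fold change -3.16, standard error 0.18; edgeR adjusted p = 5.05e-07).

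Of 10 listed partners of Mpp4, 4 were lower, 1 was higher and 5 did not pass, with a median of -0.80. Ano2, which encodes TMEM16B, reached 63.3, 65.1, 52.6 and 51.6 CPM in the control libraries against 7.79, 16.3, 10.8 and 9.56 CPM in the Mfp2-/- libraries (log2 fold change -2.41, standard error 0.21; edgeR adjusted p = 1.5e-05). Crb1, a polarity protein, fell by 1.79 on the log2 scale at low levels (11.0 ± 3.41 to 3.09 ± 0.484 CPM; edgeR adjusted p = 0.00202). Dlg4 fell by 0.78 (edgeR adjusted p = 0.00201), while Lin7b rose by 1.04 (edgeR adjusted p = 0.00357), so that the scaffold's partners did not move as one. The number called higher was 3 without both Mfp2-/- replicates 2 and 3.

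Egflam encodes pikachurin, a protein of the cleft that photoreceptors secrete and that binds dystroglycan at the terminal (chromosome 15, 7206120 to 7398395). It reached 169, 158, 178 and 170.3 CPM in the control libraries against 28.0, 31.0, 26.9 and 16.2 CPM in the Mfp2-/- libraries. Controls were within a narrow band, and Mfp2-/- replicate 4 was the lowest of its group. The mean went from 169 ± 8.19 to 25.5 ± 6.46 CPM (log2 fold change -2.73, standard error 0.19; edgeR adjusted p = 2.06e-06), which left 15.1% of the control level.

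Its receptor did not fall with it. Dag1, which encodes dystroglycan, reached 72.8, 84.1, 97.4 and 96.1 CPM in the control libraries against 124, 127, 123 and 106 CPM in the Mfp2-/- libraries. The log2 fold change was 0.45 (standard error 0.14; edgeR adjusted p = 0.0306), a call lost in 7 of the 20 alternatives (adjusted p from 0.0106 to 0.0907), among them leaving out control replicate 1 or 2 or Mfp2-/- replicate 1 or 3. Of 15 genes of the dystroglycan complex and its glycosylation, 1 was higher, 3 were lower and 11 did not pass, with a median of -0.11 that lay between -0.27 and 0.04 across the alternatives. The syntrophin Sntb2, an adaptor of the complex, fell by 2.29 on the log2 scale (edgeR adjusted p = 1e-06), from 112 ± 6.74 to 22.8 ± 3.37 CPM. Pomgnt1, a glycosyltransferase that acts on dystroglycan, had a log2 fold change of -0.49 (edgeR adjusted p = 0.0489) that passed in 7 of 20 alternatives (adjusted p from 0.0449 to 0.149) and was lost on leaving out any library other than control replicate 1 or 4.

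The ribbon and the active zone, to which the Cav1.4 channel is tethered, were reduced in part. Of 14 genes tested, 6 were lower, 3 were higher and 5 did not pass, with a median of -0.36. Cplx4, the photoreceptor complexin that controls vesicle fusion, fell from 460.2 ± 39.8 to 60.9 ± 5.19 CPM (log2 fold change -2.92, standard error 0.14; edgeR adjusted p = 1.79e-07). Unc119, a ribbon-associated protein that also carries lipid-modified cargo, fell by 2.31 (edgeR adjusted p = 1.89e-06). Slc17a7, the vesicular glutamate transporter, fell by 1.81 (edgeR adjusted p = 2.31e-06), and Stx3, the syntaxin of ribbon synapses, by 1.37 (edgeR adjusted p = 1.33e-05). The count of 6 lower genes was 6 or 7 in all 20 alternatives, whereas the 3 higher genes had adjusted p close to the threshold and were between 0 and 4 across them. The number called higher was 0 without control replicate 2 or 3, without Mfp2-/- replicate 3 or 4, with the replicate block and without the filter on low counts, 1 without control replicate 1 or 4 or Mfp2-/- replicate 1, and 2 without Mfp2-/- replicate 2. Ctbp2, whose long form RIBEYE builds the ribbon and whose short form is made in many cells, averaged 93.6 ± 8.85 CPM over the controls and 79.9 ± 12.3 CPM over the Mfp2-/- mice and did not pass the test (log2 fold change -0.23; edgeR adjusted p = 0.272). It was named after its values were seen.

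**Figure D4:**
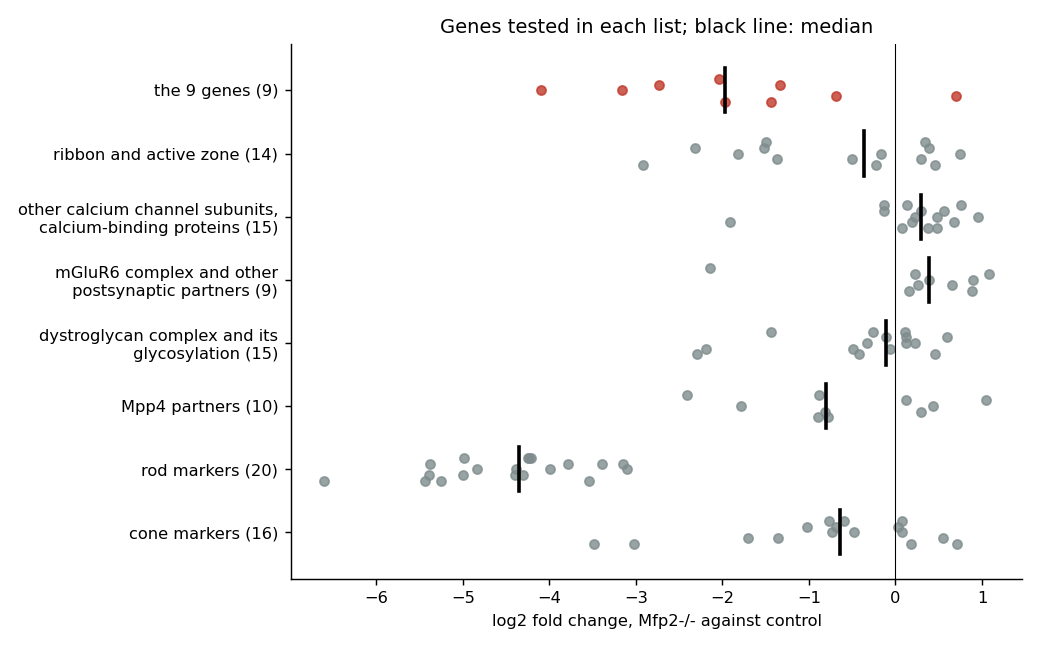
Log2 fold change of Mfp2-/- against control (horizontal axis) of every gene tested in each list, with the number of genes in brackets and the median as a black line. The median of the 9 genes, -1.97, lies between those of the cone markers (-0.64) and of the rod markers (-4.35).

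The members were then set against the photoreceptor markers of the same library. All 20 rod markers were lower in Mfp2-/- retinas, with a median log2 fold change of -4.35, and their summed level was between 56329 and 66518 CPM in control and between 2224 and 3200 CPM in Mfp2-/- libraries. Of 16 cone markers 9 were lower, 2 were higher and 5 did not pass (median -0.64), and their sum was between 2531 and 2835 CPM in control and between 1419.8 and 1575 CPM in Mfp2-/- libraries. No listed marker of rods or cones was at 0 in all libraries. The rod list includes Rcvrn, whose protein the paper places in both rods and cones, so the lists do not strictly separate these cells.

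Each member gained relative to the summed rod markers, that is, it fell less than they did or, for Elfn2, rose. Such a gain is shared by most genes, since the rod sum had a log2 change of -4.53. Cabp4, at -4.10, already ranked 43 from the lowest of the 12516 genes tested. A gain is therefore not particular to the members, and only its size is compared between them. The gain in the log2 ratio was 5.22 for Elfn2, 3.84 for Cacna2d4, 3.20 for Lrit1 and 3.09 for Cacna1f. It was 2.61 for Elfn1, 2.50 for Lrit2, 1.81 for Egflam and 1.36 for Mpp4, all with separate groups (exact permutation test, two-sided, adjusted p = 0.0286 for each of the 9 members). Cabp4 came closest to the rod markers, at -8.76, -8.77, -8.63 and -8.63 in control and -8.55, -8.13, -7.58 and -8.56 in Mfp2-/- libraries on the log2 ratio scale. Its gain of 0.49 was 0.29 without Mfp2-/- replicate 3 and 0.14 without both replicates 2 and 3, and it did not pass when the mean log2 level of the rod markers replaced their sum (0.48, exact permutation test, adjusted p = 0.200).

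Against the summed cone markers the picture was mixed. The log2 ratio changed by -3.23 for Cabp4, -2.36 for Mpp4, -1.92 for Egflam, -1.23 for Lrit2 and -1.12 for Elfn1. The change was -0.64 for Cacna1f and -0.52 for Lrit1, and the ratio of Elfn2 rose 2.82-fold (exact permutation test, adjusted p = 0.0321 for each of these 8). Cacna2d4 differed by 0.11 with overlapping groups, at -2.87 ± 0.10 in control and -2.76 ± 0.17 in Mfp2-/- libraries (exact permutation test, adjusted p = 0.314). These 9 ratios share the same marker sums and so are not independent of each other.

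**Figure D5:**
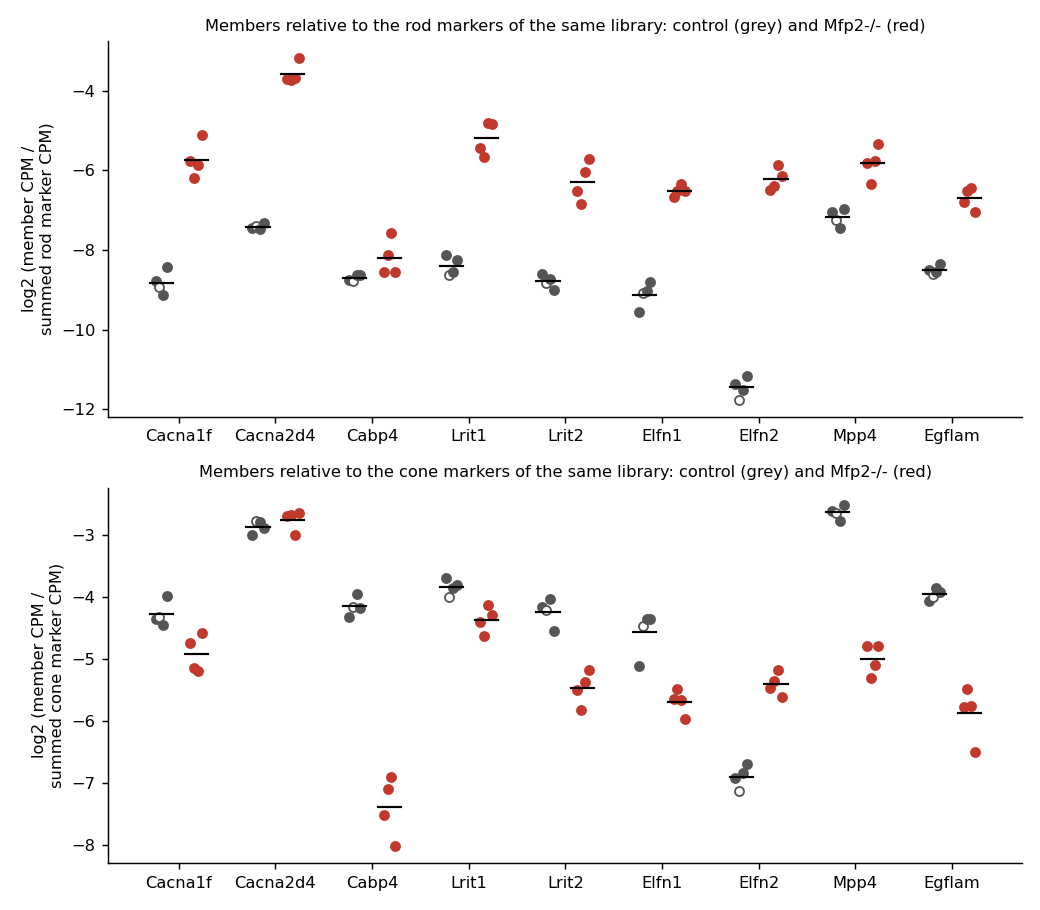
Log2 ratio of each member's CPM to the summed CPM of 20 rod markers (upper panel) and of 16 cone markers (lower panel) in the same library, in control (grey, open symbol for the Mfp2+/- mouse) and Mfp2-/- (red) libraries; black lines are group means. Red points lie above grey ones for all 9 genes in the upper panel, with Cabp4 the closest, while in the lower panel 7 genes lie below, Elfn2 lies above and Cacna2d4 overlaps.

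Markers of bipolar cells, Müller glia and microglia were mostly called higher, where 13.8% of all genes tested were called higher and 13.2% lower. Few amacrine, horizontal or pigment epithelium markers were called. Of 14 bipolar cell markers 9 were higher and 1 was lower, where 3 of the 9 (Cabp5, Grm6 and Trpm1) are also counted as higher in the synapse lists above, and their sum was between 2213 and 2619 CPM in control and between 2583 and 3401 CPM in Mfp2-/- libraries. Müller glia markers were higher in 7 of 10 genes, with a median of 1.03 and sums of 3836 to 4432 against 4857 to 6498 CPM. Of 10 listed microglia markers, 7 passed the filter and all 7 were higher, with a median of 2.01. The number called higher was 5 to 8 across the alternatives. The sums of the microglia list were 59.0 to 74.9 CPM in control and 249 to 355 CPM in Mfp2-/- libraries. Of 10 amacrine markers 2 were higher, or 1 to 5 across the alternatives (median 0.30; sums of 1488 to 1542 against 1807 to 1989 CPM), and of 5 horizontal cell markers 1 was lower (median -0.05; sums of 394 to 429 against 234 to 327 CPM). Of 7 pigment epithelium markers that passed the filter, edgeR called 0 in the main fit, with 3 at an unadjusted p under 0.05. Their median was 0.43, and the sums of the list were 263 to 474 CPM in control and 426 to 739.9 CPM in Mfp2-/- libraries. The limma-voom fit called 0, while DESeq2, run without the filter on 9 listed markers, called 1 higher. Across the alternatives 0 to 2 were called higher and 0 to 1 lower. The part of these shifts in the values of the 9 genes was not tested.

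The libraries held 2340974 to 3226187 counts in genes in control and 1895485 to 2826553 in Mfp2-/- samples. The counts of Hsd17b4, in replicate order, were 47, 20, 78 and 37 among the controls against 1, 0, 1 and 0 among the Mfp2-/- mice. Reads that overlapped no counted feature (the no-feature class) made up 22.6% to 29.9% of each table in controls. In Mfp2-/- replicates 1 to 4 they made up 27.5%, 10.8%, 15.7% and 28.0%, so that replicates 2 and 3 stood apart. Without both of them all 9 calls held, with log2 fold changes of -4.50 for Cabp4, -2.94 for Mpp4, -2.93 for Egflam, -2.04 for Elfn1, -1.90 for Lrit2, -1.29 for Lrit1, -1.17 for Cacna1f, -0.57 for Cacna2d4 and 0.59 for Elfn2. The lowest Mfp2-/- library was replicate 2 in 4 of the 9 genes, replicate 4 in another 4 and replicate 3 in Cacna2d4.

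The genes whose log2 CPM followed each member most closely over the 8 libraries (Pearson's r, mean level of at least 10 CPM) are given as a description. These libraries share the contrast, so that any gene with a large difference between groups correlates with the members. Cabp4 was most like Unc119 (r = 0.998) and Ccdc64 (0.998), Egflam like Rbp3 (0.998) and Unc119 (0.998), and Mpp4 like Vax2os (0.999) and Samd7 (0.998). For Cacna1f they were Tnrc6b (0.997) and Amer2 (0.995), and for Cacna2d4 Pla2r1 (0.995) and Stam2 (0.987). Lrit1 was most like Tma16 (0.991) and Crlf3 (0.989), and Lrit2 like Sirt2 (0.992) and Ric1 (0.991). Elfn1 followed Epb4.1l2 (0.998) and Msi1 (0.997), and Elfn2 followed Efna5 (0.986) and Rac1 (0.982), both of which rose with it.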

How the data were processed

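The authors prepared 3′ mRNA libraries (QuantSeq) from the neural retinas of 8 mice. The submitters' processing notes name FastQC 0.11.7, HISAT2, SAMtools 1.5, HTSeq 2.7.14 and the genome mm10. The deposited values are raw read counts per gene symbol without normalization, 1 table per library. Rows that name no gene held 59.2% to 66.9% of the reads in each table and were left out. The annotation release, and whether counting used strand, were not given in the sources used here. The series-wide table differed in 0 values over 21129 symbols in common.

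Genotypes came from the labels. Counts were tested with edgeR 4.0.16 in R 4.3.3 (TMM factors, filterByExpr, quasi-likelihood fit, Benjamini-Hochberg over 12516 genes, threshold 0.05, no replicate block). CPM use TMM factors, and log2 CPM a prior count of 2. Fold changes are Mfp2-/- against control. Ratios within libraries were tested by exact permutation in SciPy 1.17.1. Alternatives were RLE, upper-quartile, total-count and photoreceptor-free TMM scaling, other filters, DESeq2 1.42.0, limma-voom (limma 3.58.1), a robust fit, a replicate block, libraries left out and the series-wide table.

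The genes named are the 9 members, Hsd17b4, up to 4 genes of each of 5 synapse lists with the smallest adjusted p, and the 2 genes most like each member (gene models with Gm, Rik, RP, LOC, AC, AL or CT names left out). Members and lists were chosen with earlier results of these data known. Of the genes in the synapse lists, B4gat1 was not matched and Gnb5 and Sntb1 did not pass the filter. Among the cell type markers, P2ry12, Fcrls and Siglech (microglia) and Best1 and Tyr (pigment epithelium) did not pass it. Among the genes this rule selects, 1 is not reported here. Replicates are separate mice. Gene coordinates are from GENCODE M21 (GRCm38).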

Additional observations from a re-analysis of the deposited data

Results flagged for a closer look

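In 4 of the 58 groups examined (the 9 genes and 20 named partners, control and Mfp2-/- separately), 1 library stood apart from the other 3 by Dixon's test at 95%. Chance flags about 1 in 20 groups, which would be 2.90 of 58. Cabp4 was at 167 CPM in control replicate 3, against 140.5 to 142 CPM in the other 3 controls. Gpr179 was at 131 CPM in control replicate 4, against 115 to 117 CPM in the others. Grm6 was at 130.3 CPM in control replicate 3, against 121 to 122 CPM in the others. Dag1 was at 106 CPM in Mfp2-/- replicate 4, against 123 to 127 CPM in the other 3 Mfp2-/- libraries. The higher control of Cabp4 lies further from the Mfp2-/- libraries than the rest, and without control replicate 3 the 3 other controls averaged 141 CPM.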

How the results depend on the processing

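In all 20 alternatives 8 of the 9 genes were called lower and 1 higher, with the direction of each gene unchanged. Upper-quartile factors and total counts alone raised the median over all genes to 0.12 (log2) and the share of higher genes among calls from 51.2% to 64.2% and 65.2%. Relative to the summed cone markers in place of the rod markers, 7 genes changed from a gain to a loss: Cacna1f -0.64, Cabp4 -3.23, Lrit1 -0.52, Lrit2 -1.23, Elfn1 -1.12, Mpp4 -2.36 and Egflam -1.92, since the cone markers fell less than the rod markers. Cacna2d4 was at 0.11 and no longer passed. The ratios of the 5 pairs kept their direction in every alternative. With 3 libraries against 4 the exact test cannot go below 0.0571, so leaving out a library gives a value there and no test.

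With the replicate number as a block, the members called lower were again 8 and those called higher 1, and the calls over all genes were 2845 against 3377. Libraries of the same number correlated in their deviations at 0.08, -0.16, 0.25 and 0.21, and not every library correlated best with its own number. The strongest correlation crossed numbers, at 0.48 between control replicate 3 and Mfp2-/- replicate 2. Control replicate 3 was at -0.41 with Mfp2-/- replicate 1 and at -0.44 with replicate 4. The replicate numbers thus showed no clear pairing, but such correlations cannot exclude a pairing by litter or preparation. Low depth limits Cabp4, Crb1 and Lrit3, which had few counts in Mfp2-/- libraries.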
